A study of Mus musculus with 6 samples.

Results

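The endothelin system of the ovary was examined through 7 genes: the ligand genes Edn1, Edn2 and Edn3, the receptor genes Ednra and Ednrb, and the genes of the converting enzymes Ece1 and Ece2. They were selected on gene name from a deposited table of 22487 genes; summed counts would have decided between rows of the same name, but each name occurred once. The gene family itself was picked with the low Edn2 level after exposure already known, so the Edn2 difference is not independent evidence about the family. RNA sequencing had been done on ovarian tissue of rats in 2 groups. The 3 PM2.5 libraries came from wild-type (WT) animals after cowshed PM2.5 exposure, PM2.5 being the fine particles suspended in air, and the 3 control libraries from WT animals with no treatment. All titles give 30 days without saying what is counted. The labels give no age, strain, stage of the ovarian cycle, dose or route, nor whether the libraries of a group are separate animals. The p-values therefore refer only to the spread among these libraries. The organism label names the mouse, but titles and gene identifiers are those of the rat.

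Endothelins are short vasoconstrictor peptides that are cut from larger precursors, first by furin-type proteases and then by endothelin-converting enzymes. They act on a pair of receptors: the type A receptor of smooth muscle couples to Gq, phospholipase C and calcium release and causes contraction, while the type B receptor of endothelium triggers nitric oxide release and clears the peptide. In rats and mice, granulosa cells of the ovulating follicle make endothelin-2 in a brief burst, and contraction of the smooth muscle around the follicle is among its known actions.

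Edn2 was almost absent from the PM2.5 libraries and was the 1 member of the 6 tested that passed the test. Receptor genes were present at overlapping levels in both groups. Ece1 was above all controls in each PM2.5 library without passing, and Edn1, Ece2 and both receptor genes overlapped between the groups. Edn3 was close to the limit of detection and, with a mean of 0.0754 FPKM (fragments per kilobase scaled to library size, the authors' unit), was below the minimum mean of 0.5 FPKM for testing.

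Levels per gene length, in FPKM, place the members in order within each group. In the PM2.5 libraries Ece1 was highest at 40.8 ± 10.0 FPKM (SD, n = 3 here and in the next sentences), next to Ednrb at 36.9 ± 14.1 FPKM. Ednra followed at 4.41 ± 0.559 FPKM, then Edn1 at 1.72 ± 1.30 FPKM and Ece2 at 1.58 ± 0.478 FPKM. Edn3 at 0.0873 ± 0.107 FPKM and Edn2 at 0.0159 ± 0.0275 FPKM were last. In the PM2.5 libraries the ranges of Ece1 and Ednrb overlapped, as did those of Edn1 and Ece2 and of Edn3 and Edn2, while Ednra lay apart from its neighbours on either side. In the controls Edn2 was first at 48.5 ± 47.7 FPKM, followed by Ednrb at 29.5 ± 26.7 FPKM and Ece1 at 19.2 ± 4.96 FPKM. Ednra had 4.40 ± 1.44 FPKM, Ece2 1.35 ± 0.427 FPKM, Edn1 0.839 ± 0.461 FPKM and Edn3 0.0636 ± 0.0612 FPKM in controls. The control range of Edn2 was wide enough to overlap those of Ednrb, Ece1 and Ednra, and the control ranges of Ece2 and Edn1 also overlapped.

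**Figure D1:**
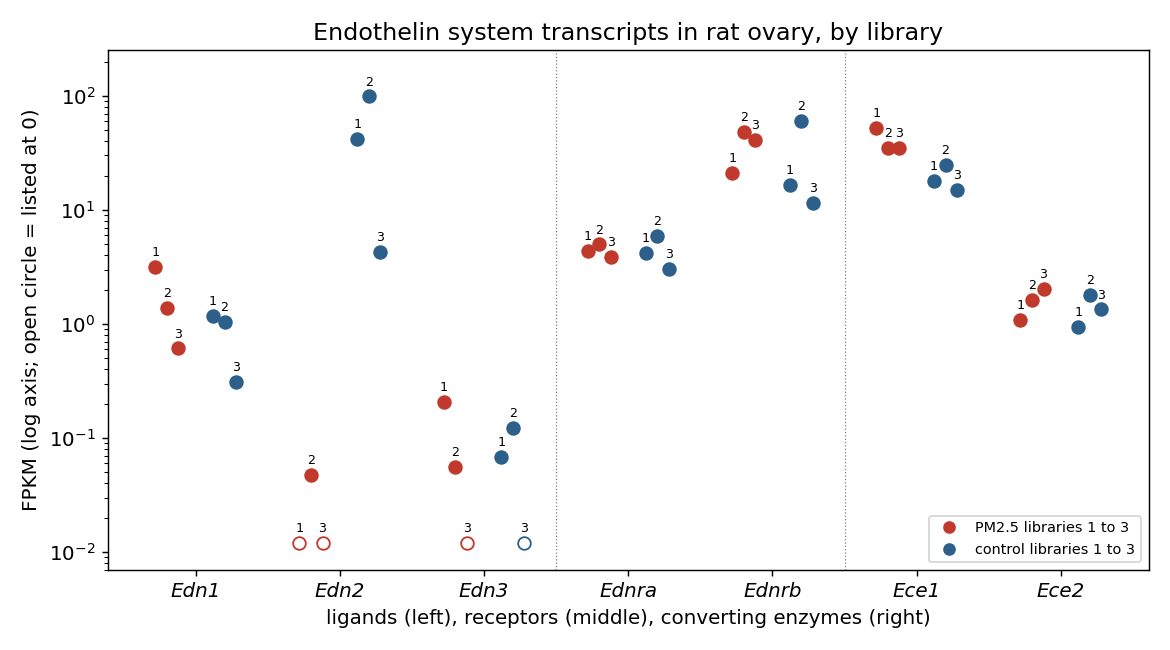
FPKM of the 7 endothelin system genes on a log axis, with PM2.5 libraries in red left of control libraries in blue, library numbers above the points, and open circles for values listed at 0. Edn2 is at 0.0476 FPKM in PM2.5 library 2 and at 0 in PM2.5 libraries 1 and 3, against 4.29 to 99.0 FPKM in the controls, while the 2 groups overlap for both receptor genes.

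Edn2, the gene of endothelin-2, had 0, 4 and 0 counts in PM2.5 libraries 1 to 3, against 2786, 6720 and 306 counts in controls 1 to 3. Scaled to library size with TMM factors, these CPM values (counts scaled to an equal library total) were 0, 0.0659 and 0 in the PM2.5 libraries, against 58.3, 131 and 6.18 in the controls. All PM2.5 values were at 0 or close to the level of 3 counts in a library, which is 0.0494 to 0.0604 CPM there, and the lowest control was 93.8-fold above the highest PM2.5 library. Controls differed among themselves by 21.3-fold, with control 2 highest and control 3 lowest. Pooled over libraries, 4 counts in PM2.5 stood against 9812 in controls, which makes Edn2 2690-fold lower in PM2.5 with a 95% exact interval of 1050 to 9870 that covers counting error only. Control 2 gave 6720 of the control counts and PM2.5 library 2 all 4 of the PM2.5 counts. Without control 2 the pooled level was 1290-fold lower in PM2.5. Without PM2.5 library 2, taking 3 counts over the group as its floor, it was 2250-fold lower, a value set by that floor and no bound. In tissue of this kind, fewer Edn2-expressing cells and less RNA per cell cannot be told apart. No label gives the stage of the ovarian cycle, so its part in the Edn2 difference was not tested.

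By the quasi-likelihood test of edgeR, adjusted after Benjamini and Hochberg over the 15303 genes tested, the log2 fold change of Edn2 was -11.26 ± 1.61 (SE) with an adjusted p of 0.0434. That fitted size depends on how near-zero counts are treated and is no bound. The test called 0.928% of all genes (142), 0.190% as higher and 0.738% as lower, beside 1 of the 6 members tested. Groups were apart with PM2.5 lower in 15.2% of genes. Edn2 reached the minimum for testing through the controls alone, and the family was chosen with its low PM2.5 level known, so nothing is read from that share. With 1 PM2.5 library left out, the edgeR adjusted p became 0.106 (number 1), 0.248 (number 2) or 0.0915 (number 3). With 1 control left out it became 0.112 (number 1), 0.0706 (number 2) or 0.0322 (number 3).

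Edn1 encodes endothelin-1, the main endothelin of vascular endothelium, and was a low transcript in every library. It had 6.91, 3.05 and 1.35 CPM in PM2.5 libraries 1 to 3, against 2.57, 2.21 and 0.727 CPM in controls 1 to 3. The groups overlapped, and PM2.5 libraries 1 and 2 were above every control. The log2 fold change was 1.04 ± 0.72 with a 95% interval of -0.67 to 2.74 (edgeR adjusted p = 0.442), and it was 0.26 without PM2.5 library 1. Edn3 encodes endothelin-3, which favours the type B receptor and is best known from the development of enteric neurons and pigment cells. It had 9, 3 and 0 counts in PM2.5 libraries and 3, 5 and 0 counts in controls, so a difference between groups was not detectable at this depth.

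Because Edn2 made up most ligand RNA in controls, the summed ligand level differed as well. The 3 ligand genes together had 3.36, 1.49 and 0.610 FPKM in PM2.5 libraries 1 to 3, against 43.5, 100.1 and 4.61 FPKM in controls 1 to 3. The groups did not overlap in this sum, and control 3 and PM2.5 library 1 lay closest. Edn2 supplied 0, 3.20 and 0% of the ligand FPKM in PM2.5 libraries, against 97.2, 98.8 and 93.2% in controls. Edn1 supplied 93.9, 93.1 and 100% in PM2.5 libraries, against 2.68, 1.04 and 6.77% in controls. The sum and these shares follow from the Edn2 values and add no separate result. Edn1 itself overlapped between the groups.

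The receptor genes did not pass the test. Ednra, the gene of the type A receptor, had 24.5, 28.0 and 21.7 CPM in PM2.5 libraries 1 to 3, against 23.7, 32.0 and 17.9 CPM in controls 1 to 3. All PM2.5 values were inside the control range, with a log2 fold change of 0.01 ± 0.25 (95% interval -0.58 to 0.60, edgeR adjusted p = 0.986). Ednrb, the gene of the type B receptor, had 46.8, 107 and 91.5 CPM in PM2.5 libraries, against 37.0, 129 and 26.9 CPM in controls. Control 2 was the highest library and controls 1 and 3 the lowest, so the groups overlapped. The log2 fold change of Ednrb was 0.35 ± 0.61 with a wide 95% interval of -1.11 to 1.80 (edgeR adjusted p = 0.782). Without control 2 it was 1.36 (adjusted p = 0.136), and without control 3 it was -0.01.

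Ednrb RNA exceeded Ednra RNA per length in all 6 libraries. The ratio of Ednrb FPKM to Ednra FPKM was 4.82, 9.67 and 10.7 in PM2.5 libraries 1 to 3, against 3.94, 10.2 and 3.80 in controls 1 to 3. The groups overlapped, with control 2 close to PM2.5 libraries 2 and 3 and the other 2 controls below all PM2.5 libraries. On the log2 scale Ednra over Ednrb averaged -2.99 ± 0.62 in PM2.5 and -2.42 ± 0.81 in controls (SD, n = 3 each). The difference of -0.57 had a p of 0.3 in a two-sided exact permutation test, in which 3 against 3 libraries cannot go below 0.1.

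**Figure D2:**
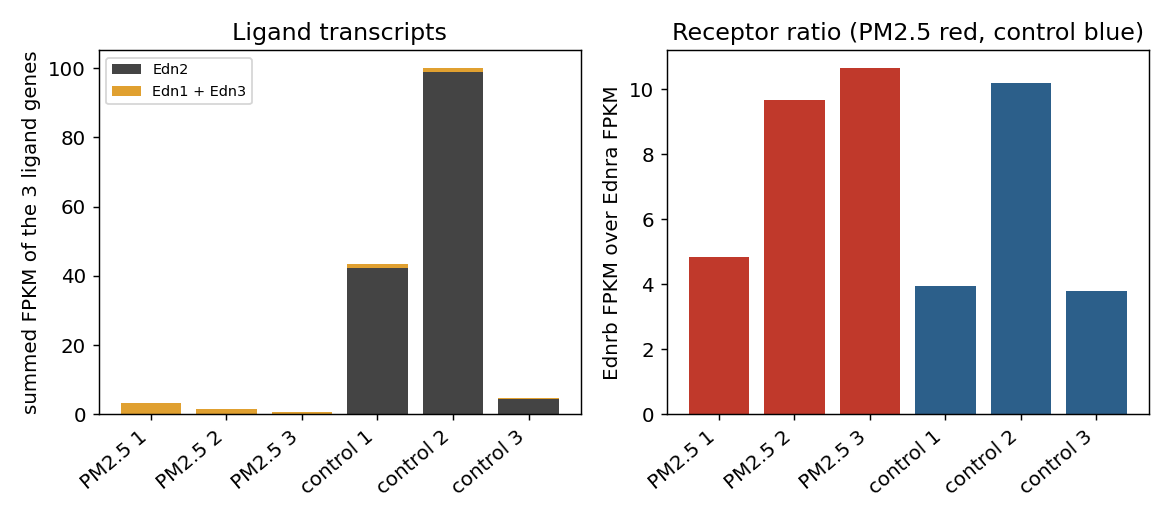
Left, summed FPKM of Edn2 (dark) and of Edn1 with Edn3 (yellow) in each library, PM2.5 first and controls after. Right, the ratio of Ednrb FPKM to Ednra FPKM in the same libraries. Edn2 fills almost all of the control ligand bars and is hardly present in the PM2.5 bars, whereas receptor ratios from 3.80 to 10.7 are found across both groups.

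Ece1 encodes the main converting enzyme that releases active endothelins from their precursors. It had 308, 208 and 205 CPM in PM2.5 libraries 1 to 3, against 106, 141 and 92.5 CPM in controls 1 to 3. The groups did not overlap, PM2.5 library 1 was highest, and the lowest PM2.5 library was 1.45-fold above the highest control. Over all genes tested 12.1% had groups apart in that direction, and 27.2% in either direction. The log2 fold change was 1.09 ± 0.24, a mean of 2.12-fold, with a 95% interval of 0.52 to 1.65. With an edgeR adjusted p of 0.0865 Ece1 missed the threshold of 0.05, and leaving out a library gave log2 fold changes of 0.87 to 1.27 with adjusted p of 0.0779 to 0.259. DESeq2, which called 11.6% of genes, gave an adjusted p of 0.00108.

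Ece2 encodes a related converting enzyme that works at acidic pH. It had 4.25, 6.28 and 7.98 CPM in PM2.5 libraries 1 to 3, against 3.66, 6.73 and 5.47 CPM in controls 1 to 3. The groups overlapped, with a log2 fold change of 0.22 ± 0.38 (95% interval -0.67 to 1.12, edgeR adjusted p = 0.771). Per length, Ece1 exceeded Ece2 by 48.0, 21.8 and 17.0-fold in PM2.5 libraries and by 19.2, 13.8 and 11.2-fold in controls. The log2 ratio was 4.71 ± 0.78 in PM2.5 and 3.85 ± 0.39 in controls (exact permutation p = 0.2, two-sided, n = 3 each).

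**Figure D3:**
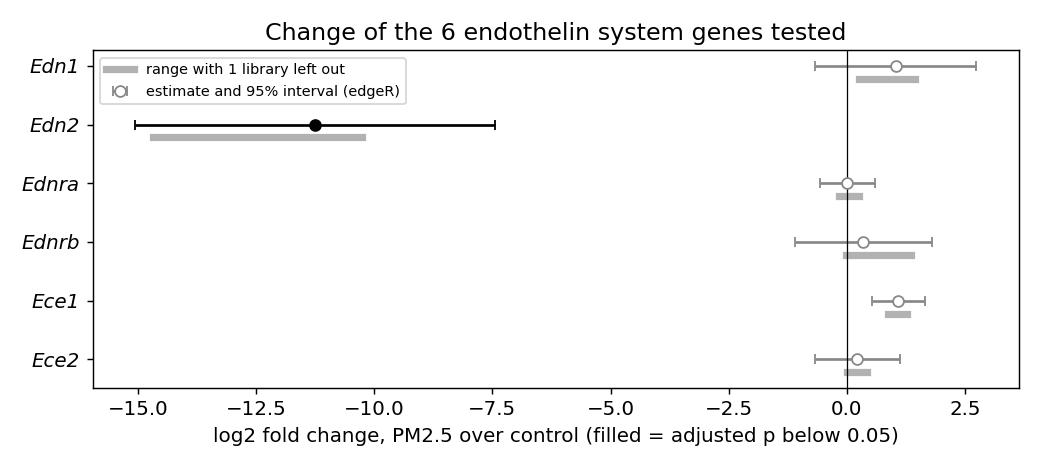
Log2 fold change, PM2.5 over control, of the 6 members tested, with 95% intervals from edgeR and, as grey bars, the range when 1 library was left out. Edn2 at -11.26 is the filled point that passed at an adjusted p below 0.05, Ece1 has an interval from 0.52 to 1.65 without passing, and the other intervals span 0.

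The members lie apart in the genome except for Edn2 and Ece1, which share chromosome 5. In coordinates of the deposited table, for which no source used here names the build, Edn2 spans 133751217 to 133756814 and Ece1 150077644 to 150179371, both on the plus strand. No other row of the table overlaps any of the 7 genes. In the table's own annotation, Edn1, Edn2, Ednra and Ednrb carry the term vasoconstriction, 4 of the 7 members, and Ece1 and Ece2 share the term for metalloendopeptidase activity.

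The difference at Edn2 was compared with its 4 nearest tested genes on either side, a look chosen after the Edn2 values were seen. These 8 genes start 105 to 724 kb from the Edn2 start, none of them passed, and their log2 fold changes were between -0.44 and 1.76. Foxo6, the nearest and a forkhead transcription factor, had 5.84 ± 1.47 CPM in PM2.5 and 7.20 ± 3.20 CPM in controls (log2 fold change -0.30 ± 0.41). Cited4, a transcriptional cofactor, had 65.9 ± 5.74 CPM in PM2.5 and 28.8 ± 7.44 CPM in controls. Its groups were apart, as in 12.1% of all genes tested with PM2.5 higher. The log2 fold change was 1.19 ± 0.21 (edgeR adjusted p = 0.0574). Guca2a, the gene of the gut peptide guanylin, was low at 1.77 ± 0.747 CPM in PM2.5 and 0.523 ± 0.239 CPM in controls. Its log2 fold change of 1.76 was the largest of the 8. Guca2a and Foxj3 (0.40) also had every PM2.5 library above every control.

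**Figure D4:**
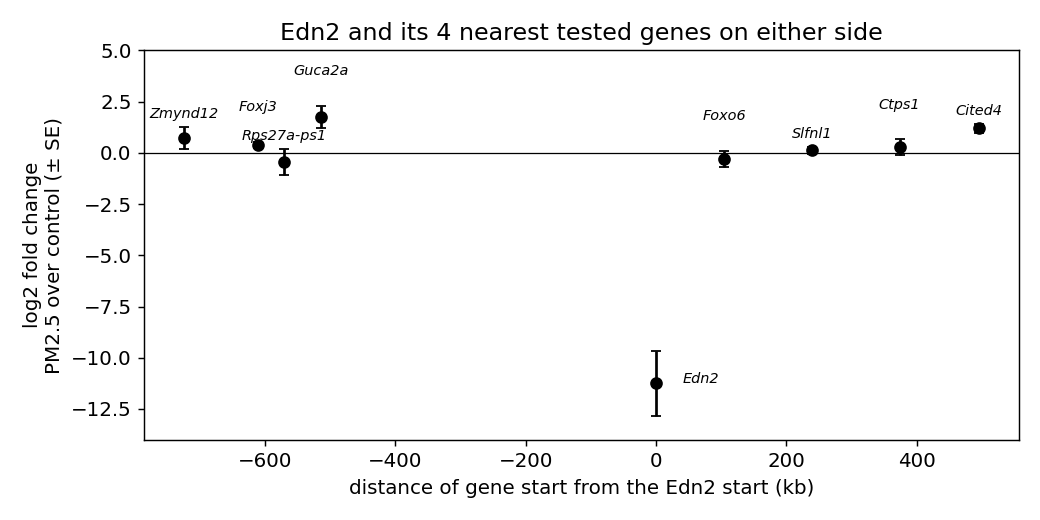
Log2 fold change, PM2.5 over control (± SE), of Edn2 and its 4 nearest tested genes on either side, against the distance of gene starts from the Edn2 start in kb. Edn2 stands at -11.26 and its neighbours between -0.44 and 1.76.

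Genes with the library profile closest to that of Edn2 were sought by the mean absolute difference of centred log2(CPM + 1) over the 6 libraries. Among the closest named genes were Fosb at 1.18 log2 units, Kctd11 at 1.23, Areg at 1.35 and Arc at 1.37. Kctd11 had 2.80, 1.25 and 1.27 CPM in PM2.5 libraries 1 to 3, against 23.9, 50.5 and 21.2 CPM in controls 1 to 3, and was the 1 of these 4 that passed (log2 fold change -4.16 ± 0.52, edgeR adjusted p = 0.0434). Fosb, a subunit of the AP-1 transcription factor, had 2.54, 1.25 and 2.22 CPM in PM2.5 libraries, against 15.4, 77.3 and 11.7 CPM in controls. The search itself favours genes that are low in PM2.5 and high in control 2, so these patterns add nothing to the Edn2 result. Since Edn2 spans a far wider range than these genes, distances above 1 log2 unit are large. For Ednra the closest were Dgat2, Lta4h, Cnrip1, C1galt1 and Xrcc4, at 0.0686 to 0.0779 log2 units. For Ednrb they were Gadd45g, Cga, Tubb4a, Fyb2 and Tnfsf13b, at 0.202 to 0.234 log2 units. Ece1 was added to this search after its values were seen, and the closest were Glul, which encodes glutamine synthetase, at 0.0779 log2 units, and Chi3l1, Mgrn1, Acsl4 and Sort1 at up to 0.110.

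Genes around the ligands and receptors were taken from lists, and no member of these pathway lists passed over all genes. For comparison, the median log2 fold change of all genes tested was 0.00, with 7709 genes above control and 7594 below. In the list of precursor cleavage and peptide degradation 7 of 10 genes were tested, with a median of 0.49 and groups apart in 2, beside 27.2% of all genes tested. Mme, the gene of neprilysin, which degrades endothelins, had 151, 130 and 148 CPM in PM2.5 libraries 1 to 3, against 95.6, 85.2 and 64.2 CPM in controls 1 to 3 (log2 fold change 0.81 ± 0.18, edgeR adjusted p = 0.0892). Pcsk5, a furin-like convertase, had 66.8 ± 9.13 CPM in PM2.5 and 37.4 ± 10.7 CPM in controls (0.84 ± 0.24, edgeR adjusted p = 0.137). For both genes the PM2.5 libraries lay above all controls. Furin itself had a log2 fold change of 0.17 ± 0.14.

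Among G proteins and phospholipases C, 8 of 9 genes were tested with a median of -0.09. Plcb4, a phospholipase C driven by Gq, had 150, 177 and 191 CPM in PM2.5 libraries 1 to 3, against 73.4, 69.6 and 121 CPM in controls 1 to 3 (log2 fold change 0.97 ± 0.24, edgeR adjusted p = 0.112). Plcb2, a form best known from blood cells, had 2.00 ± 0.245 CPM in PM2.5 and 5.26 ± 1.62 CPM in controls (-1.39 ± 0.36, edgeR adjusted p = 0.117). Groups were apart for both, in opposite directions, and both had their highest control in control 3. Over all genes tested, groups were apart in 12.1% with PM2.5 higher and in 15.2% with PM2.5 lower. Gnaq and Gna11, which encode the G protein subunits that the receptors use, had log2 fold changes of -0.15 ± 0.36 and 0.21 ± 0.12.

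All 12 genes of calcium release and contraction were tested, 10 with positive fold changes, with a median of 0.26. Itpr3, an inositol trisphosphate receptor that releases stored calcium, had 73.4 ± 5.64 CPM in PM2.5 and 46.6 ± 5.85 CPM in controls (log2 fold change 0.66 ± 0.15, edgeR adjusted p = 0.0892). Rock1, a kinase that sustains contraction, had 44.9 ± 4.14 CPM in PM2.5 and 26.4 ± 7.38 CPM in controls (0.77 ± 0.22, edgeR adjusted p = 0.137). In both genes every PM2.5 library was above every control, as in 12.1% of all genes tested. Of 9 genes that regulate G protein-coupled receptors the median was 0.01. Rgs2, a brake on Gq, had 79.9, 71.2 and 105 CPM in PM2.5 libraries 1 to 3, against 209, 773 and 357 CPM in controls 1 to 3 (log2 fold change -2.39 ± 0.48, edgeR adjusted p = 0.0724). Rgs16, a related brake, had 1.92 ± 0.392 CPM in PM2.5 and 5.35 ± 0.734 CPM in controls (-1.47 ± 0.34, edgeR adjusted p = 0.0964). The groups were apart in both genes, as in 15.2% of all genes tested with PM2.5 lower. Rgs16 had 4.66, 6.12 and 5.25 CPM in controls 1 to 3. Control 2 was highest for each, as for Edn2, but control 3 was above control 1 in both, unlike for Edn2.

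The opposing nitric oxide and cGMP arm had 8 of 11 genes tested and a median of -0.14. Its smallest p belonged to Gucy1b1, a soluble guanylyl cyclase subunit, with a log2 fold change of -0.73 ± 0.31 (edgeR adjusted p = 0.247). Control 3 was the highest library for Gucy1b1. Nppc, the gene of C-type natriuretic peptide that holds oocytes in meiotic arrest, had 6.50, 17.2 and 21.7 CPM in PM2.5 libraries 1 to 3, against 34.2, 122 and 13.5 CPM in controls 1 to 3. The groups overlapped for Nppc, with control 2 highest. Nos3, the endothelial nitric oxide synthase, had 0.44 ± 0.20 and groups apart, as in 12.1% of all genes tested with PM2.5 higher. Of other vasoactive peptide genes 10 of 16 were tested, with a median of 0.05. Agtr1a, the type 1 angiotensin receptor, had 16.3, 9.77 and 9.61 CPM in PM2.5 libraries, against 2.84, 3.64 and 6.75 CPM in controls (log2 fold change 1.43 ± 0.42, edgeR adjusted p = 0.140). Ramp3, a subunit of adrenomedullin receptors, had 1.00 ± 0.39, and every PM2.5 library was above every control for both.

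Edn2 is a known target of the progesterone receptor in ovulating mouse follicles, so ovulation genes were read beside it. Of 12 genes listed for that receptor and its targets 10 were tested, 7 with negative fold changes, with a median of -0.68. Pgr, the receptor gene itself, had 2.77, 2.16 and 0.564 CPM in PM2.5 libraries 1 to 3, against 0.962, 8.02 and 0.666 CPM in controls 1 to 3. It was low throughout and highest in control 2. Areg, an epidermal growth factor-like ligand of ovulation, had 0.172, 0.214 and 0.403 CPM in PM2.5 libraries, against 5.54, 16.7 and 2.81 CPM in controls. The groups did not overlap, as in 15.2% of all genes tested with PM2.5 lower. The log2 fold change of Areg was -4.98 ± 0.82 (edgeR adjusted p = 0.0521). Zbtb16, a transcription factor, lay in the opposite direction with 5.07 ± 2.31 CPM in PM2.5 and 0.563 ± 0.227 CPM in controls (3.16 ± 0.53, edgeR adjusted p = 0.0541). Ereg, another such growth factor, had 34.8 CPM in control 2 and at most 0.848 CPM in the other 5 libraries.

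The list of factors of the luteinising hormone surge and the cumulus had 13 of 15 genes tested and a median of 0.07. Besides Rgs2, its smallest p was that of Cebpb, a transcription factor that mouse granulosa cells need to luteinise. Cebpb had 213 ± 39.1 CPM in PM2.5 and 487 ± 163 CPM in controls (log2 fold change -1.19 ± 0.28, edgeR adjusted p = 0.101). Controls 1 to 3 had 323, 491 and 648 CPM of Cebpb, so control 3 was highest, unlike for Edn2. Hif1a and Epas1, the oxygen-sensing factors that can raise Edn2 in granulosa cells, had log2 fold changes of 0.02 ± 0.22 and 0.07 ± 0.32. Ptgs2 at 0.82 ± 1.13 and Lhcgr at 0.37 ± 0.58 overlapped between groups. Of 10 hypoxia targets 9 were tested, with a median of -0.51. Ndrg1 at -1.25 ± 0.42 and Egln3 at -2.58 ± 0.92 had the smallest p, with edgeR adjusted p of 0.168 and 0.184. Egln3 had 4.62, 1.91 and 0.725 CPM in PM2.5 libraries 1 to 3, against 7.38, 31.1 and 5.05 CPM in controls 1 to 3, and so also stood highest in control 2.

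**Figure D5:**
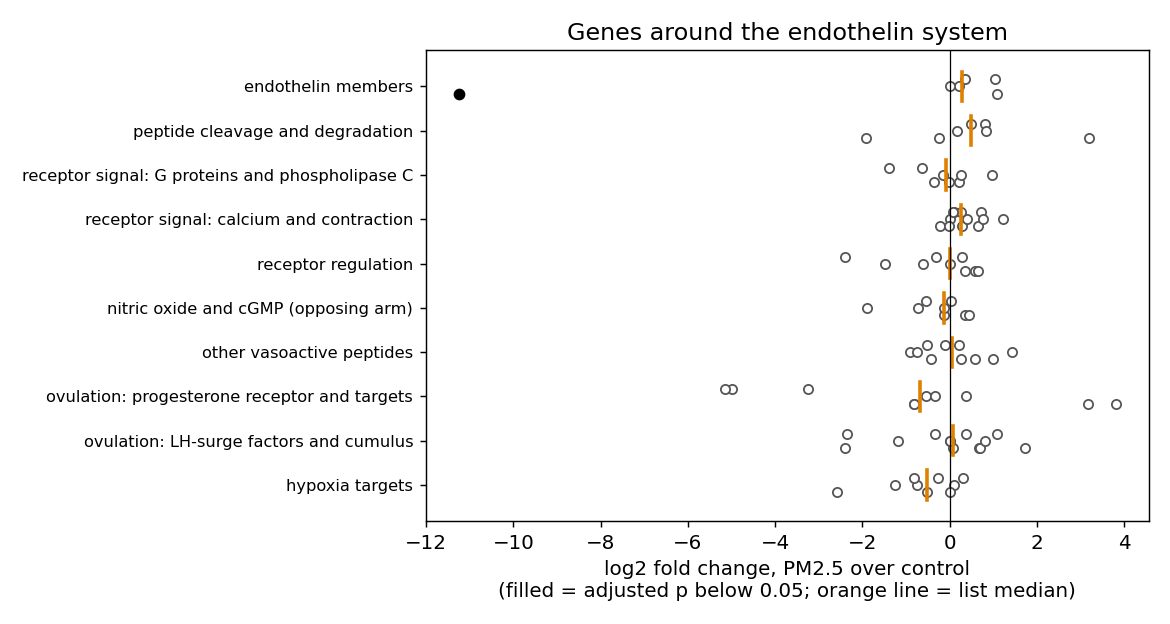
Log2 fold change, PM2.5 over control, of each tested gene in the endothelin family and 9 lists around it, with filled points for genes at an adjusted p below 0.05 and an orange line at each list median. Edn2 at -11.26 is the filled point, and the list medians lie between -0.68 and 0.49.

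Cell type markers were read beside Edn2 and Ece1, as sums of CPM over each list. Total counts were 47662338 to 60749578 per library. Granulosa markers summed to 2676, 7234 and 8602 CPM in PM2.5 libraries 1 to 3, against 6076, 5234 and 1445 CPM in controls 1 to 3. Control 3 had the lowest granulosa sum and the lowest Edn2 of the controls, but control 1 had a higher granulosa sum than control 2 and less Edn2. That order of controls 1 and 2 rests on Inha, the largest part of the sum, with 4455, 3253 and 886 CPM in controls 1 to 3. Among the controls, Inha, Fshr, Hsd17b1 and Foxl2 were highest in control 1. Cyp19a1, Inhba, Amh and Nr5a2 were highest in control 2, as Edn2 was. PM2.5 libraries 2 and 3 had the highest granulosa sums and 0.0659 and 0 CPM of Edn2. The part of granulosa content in the Edn2 difference was not tested. Smooth muscle markers summed to 2202, 3952 and 845 CPM in PM2.5 and 1070, 1128 and 625 CPM in controls. Endothelial markers summed to 812, 501 and 545 CPM in PM2.5 and 627, 583 and 922 CPM in controls, so the groups overlapped in these 3 lists.

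In 4 other lists the marker sums did not overlap between the groups. Sums over the lymphatic, pericyte, theca, macrophage and mast cell lists overlapped. Among single genes tested, 27.2% had groups apart in either direction. Erythroid markers summed to 2736 to 4267 CPM in PM2.5 and 784 to 1043 CPM in controls, and adipocyte markers to 42.1 to 86.7 CPM in PM2.5 and 19.7 to 32.0 CPM in controls. Luteal markers summed to 3710 to 5304 CPM in PM2.5 and 6243 to 13114 CPM in controls, and T and NK cell markers to 11.6 to 15.5 CPM in PM2.5 and 25.6 to 53.3 CPM in controls. Each of these 2 sums was set apart by a single gene. Without Akr1c3 the luteal sums were 5008, 2546 and 1710 CPM in PM2.5 libraries 1 to 3, against 1658, 2104 and 3578 CPM in controls 1 to 3. Without Gzmb the T and NK sums were 11.7, 13.0 and 10.7 CPM in PM2.5, against 13.7, 12.3 and 10.2 CPM in controls. Both then overlapped. Epithelial markers, with 6 of 9 in the table, overlapped, with sums of 89.8 to 591 CPM in PM2.5 and 23.5 to 171 CPM in controls. None of the markers in the table was at 0 in all libraries, and the part of these lists in the Edn2 and Ece1 differences was not tested.

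Of the marker genes, Hba-a1, Hbb and Alas2 rose and Gzmb fell over all genes, and no other passed. These were 3 of 5 erythroid and 1 of 6 T and NK markers tested, beside 0.928% of all genes. With 1 library left out none of them passed. The edgeR adjusted p was then 0.0706 to 0.236 for the 3 erythroid genes and 0.0717 to 0.23 for Gzmb. In the same lists Hba-a3 had a log2 fold change of -0.14 and Ahsp of 0.27, and Cd2 had 0.06, Cd8a 0.47 and Klrd1 0.21. Nkg7 at -0.35 and Prf1 at -1.44 had the same sign as Gzmb. Prf1 was lower in every PM2.5 library than in every control, as were 15.2% of all genes tested. In the vascular lists the smallest p were those of Tek (log2 fold change 0.44) and Kdr (0.98) for endothelium and of Mmrn1 (1.14) and Lyve1 (0.88) for lymphatics. They were those of Acta2 (1.42) and Tagln (1.40) for smooth muscle and of Abcc9 (-1.28) and Notch3 (-0.81) for pericytes. Endothelial markers went both ways, 6 of the 10 with negative fold changes, with a list median of -0.41. Every PM2.5 library was above every control for Tek and below every control for Cdh5 (-0.83). Groups were apart in either direction in 27.2% of all genes tested. In the ovarian lists they belonged to Nr5a2 (0.63) and Hsd17b1 (0.77) for granulosa, Insl3 (-0.55) and Cyp17a1 (-1.55) for theca, Akr1c3 (-2.34) and Parm1 (-0.37) for luteal cells, and Pax8 (2.80) and Epcam (2.84) for epithelium. In the remaining lists they were Cd163 (1.25) and Mrc1 (0.51) for macrophages, Adipoq (3.90) and Cfd (1.00) for adipocytes, and Kit (-0.79), the 1 mast cell marker tested. Macrophage markers also went both ways, 4 of the 7 with negative fold changes, Cd68 at -0.45 among them. The macrophage list median was -0.0047.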

How the data were processed

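Per the labels' protocols, Trizol RNA was selected for poly(A), marked by strand with dUTP and sequenced in pairs on a NovaSeq. The submitters' processing notes name StringTie 2.1.6, HISAT2 2.2.1 and cutadapt 1.9, besides edgeR and DESeq2, in roles not given. No source used here names the genome build, annotation release or strand setting. The deposited table holds, per the file headers, a count and an FPKM value of each gene per library. Counts are whole numbers; FPKM values are the authors' own scaling and served for levels between genes and for filtering.

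Genes averaging 0.5 FPKM or more across the 6 libraries were tested for PM2.5 over control with edgeR 4.0.16 in R 4.3.3 (TMM, glmQLFit, glmQLFTest, two-sided, Benjamini-Hochberg at 0.05). The SE is the size of the log2 fold change over the square root of F. DESeq2 1.42.0, limma 3.58.1 on log2 FPKM, other scalings and filters, a block on the replicate number and leaving out libraries were alternatives. The pipeline was tested on simulated counts. Members and lists were chosen with earlier results of these data known. Named are all members, list genes that passed or else the 2 with the smallest p in a list, the 5 closest profiles, and a few genes with a known role beside endothelins, picked after their values were seen. A gene that this rule names is not reported here. Libraries of a group differed by far more than sampling noise, so no library is a copy of another; this does not show that they are separate animals. The reference at hand is of the mouse, so no sequence is printed.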

Additional observations from a re-analysis of the deposited data

How the results depend on the processing

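The number of genes called was 142, and it was 8 with no filter, 87 under filterByExpr of edgeR, 1767 with DESeq2, 1 with the replicate block and 0 to 7 when a library was left out, where fewer samples entered the test and 1898 to 3493 genes had an unadjusted p below 0.05. Of the members, 1 was called, and 0 without a filter (Edn2 adjusted p = 0.0505), 0 with limma on log2(FPKM + 1) (0.0701), 2 with DESeq2, Edn2 and Ece1, and 0 to 1 with a library left out. In those fits 2 or 3 members had an unadjusted p below 0.05, and the fitted log2 fold change of Edn2 was -14.67 to -10.25. Among list genes other than members 4 were called, against 0 with no filter, 2 under filterByExpr, 32 with DESeq2, 0 with the replicate block and 0 to 1 with a library left out, where 28 to 57 had an unadjusted p below 0.05. The cause of these changes was not tested, and leaving out a library changes both the number of samples and which samples enter. Scaling by DESeq2 size factors or library size, a mean of at least 1 FPKM, limma on log2(FPKM + 0.1) and robust estimation kept all 3 counts within 1.5 times. The receptor difference of -0.57 was -0.57 on the CPM scale and between -1.03 and -0.32 when a library was dropped. No label pairs the same-numbered libraries, and their deviations correlated at -0.296, 0.133 and -0.0525; with the replicate block Edn2 had an adjusted p of 0.0213. No gene named turned a called direction. The pooled Edn2 folds and marker sums with a library or gene left out were added after seeing the data. Counts of 0 to 9 limit what can be said of Edn3, and of Edn2 within PM2.5.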
